A study of Homo sapiens with 4 samples.

Results

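The genes described here are 10 members of the epithelial to mesenchymal programme of KP4, an established human cell line of pancreatic ductal adenocarcinoma (PDAC). They were taken by gene name from a count table of 60651 genes, and each name matched 1 row. They are the classical cadherins CDH1, CDH2 and CDH3, the transcription factors ZEB1, ZEB2, SNAI2, TWIST1 and GRHL3, the intermediate filament gene VIM and the matrix gene FN1. RNA sequencing covered 4 groups: E5 cells given FOLFIRINOX, E5 cells given vehicle, control (Ctrl) cells given FOLFIRINOX and Ctrl cells given vehicle, each for 96 h. FOLFIRINOX here was SN-38, irinotecan's active form, at 25 nM, with 10 µM of an agent labelled 5-F and 5 µM oxaliplatin. Vehicle was DMSO. The study's title calls E5 cells resistant, while its design text speaks of 5 cycles of either treatment, which leaves the earlier exposure of the E5 vehicle libraries unclear. E5 and Ctrl cells come from 1 cell line. Each group had 3 numbered columns, treated here as 3 libraries (12 in all). The sources used here do not say whether they come from separate cultures, so p-values measure only the spread between these columns, which may be technical.

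Classical cadherins hold neighbouring cells together through calcium-dependent contacts, and their tails bind catenins that link them to actin. E-cadherin (CDH1) is typical of epithelia and P-cadherin (CDH3) of basal epithelial layers. N-cadherin (CDH2) is typical of nerve and mesenchymal cells. ZEB1, ZEB2, SNAI2 and TWIST1 bind E-box motifs and repress CDH1 in many cell types, whereas GRHL3, a grainyhead-like factor, belongs to a family that maintains epithelial genes. Vimentin (VIM) and fibronectin (FN1) are commonly read as mesenchymal products.

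The libraries held 7359034 to 21775030 reads in genes, and 15636 genes passed the filter on low counts. Of the 10 members, 8 passed it, and SNAI2 and TWIST1 did not. The filter's level was 0.623 CPM (counts scaled for library depth), without the TMM factors that scale CPM elsewhere in the text. ZEB2 reached it in 2 Ctrl FOLFIRINOX libraries and 1 E5 FOLFIRINOX library only. GRHL3 reached it in the 3 Ctrl vehicle libraries and 1 Ctrl FOLFIRINOX library. CDH1 reached it in all 3 libraries of each vehicle group, in 1 E5 FOLFIRINOX library and in 0 Ctrl FOLFIRINOX libraries. Such genes passed the filter through the groups where they were higher. Their tests against the other groups, and counts over the tested members, are therefore descriptions. The summed FPKM (the authors' fragment values scaled by gene length and depth) of 6 ductal markers was 693 to 764 in E5 FOLFIRINOX, 635 to 692 in E5 vehicle, 385 to 430 in Ctrl FOLFIRINOX and 164 to 190 in Ctrl vehicle libraries. KRT8 and KRT18 made up most of the sum. The 4 leukocyte markers summed to 0.33 to 0.45, 0.03 to 0.36, 2.98 to 3.72 and 11.4 to 12.3 FPKM in the same order of groups, with CD3E at 0 throughout. The 4 endothelial markers summed to 0.07 to 1.67, the 5 fibroblast markers to 1.57 to 6.25 and the 3 erythroid markers to 0.18 to 1.11 FPKM over all 12 libraries. In bulk RNA, fewer cells of a type and less RNA per cell cannot be told apart.

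Per length, VIM stood far above every other member in each group. Its FPKM averaged 1000 ± 36.4 in E5 FOLFIRINOX, 1390 ± 38.7 in E5 vehicle, 1120 ± 50.9 in Ctrl FOLFIRINOX and 1190 ± 55.8 in Ctrl vehicle libraries (SD, n = 3 each). Next in level came CDH3 in both E5 groups, at 27.4 ± 3.12 FPKM with FOLFIRINOX and 49.6 ± 2.31 with vehicle. In both Ctrl groups that place was held by CDH2, at 24.9 ± 0.774 FPKM with FOLFIRINOX and 29.5 ± 0.965 with vehicle. ZEB1 followed CDH2 and CDH3 in E5 FOLFIRINOX, E5 vehicle and Ctrl vehicle cells, but stood above CDH3 in Ctrl FOLFIRINOX cells, at 17.5 ± 4.26 against 10.9 ± 1.99 FPKM, with the 3 libraries of the genes not overlapping. FN1 lay between 0.99 and 5.65 FPKM over the 12 libraries, and its Ctrl vehicle libraries overlapped those of GRHL3. CDH1 never exceeded 0.90 FPKM in any library. In both FOLFIRINOX groups ZEB2 overlapped its neighbour next lower in level, and the levels of SNAI2 and TWIST1 did not stand apart from each other in any group.

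**Figure D1:**
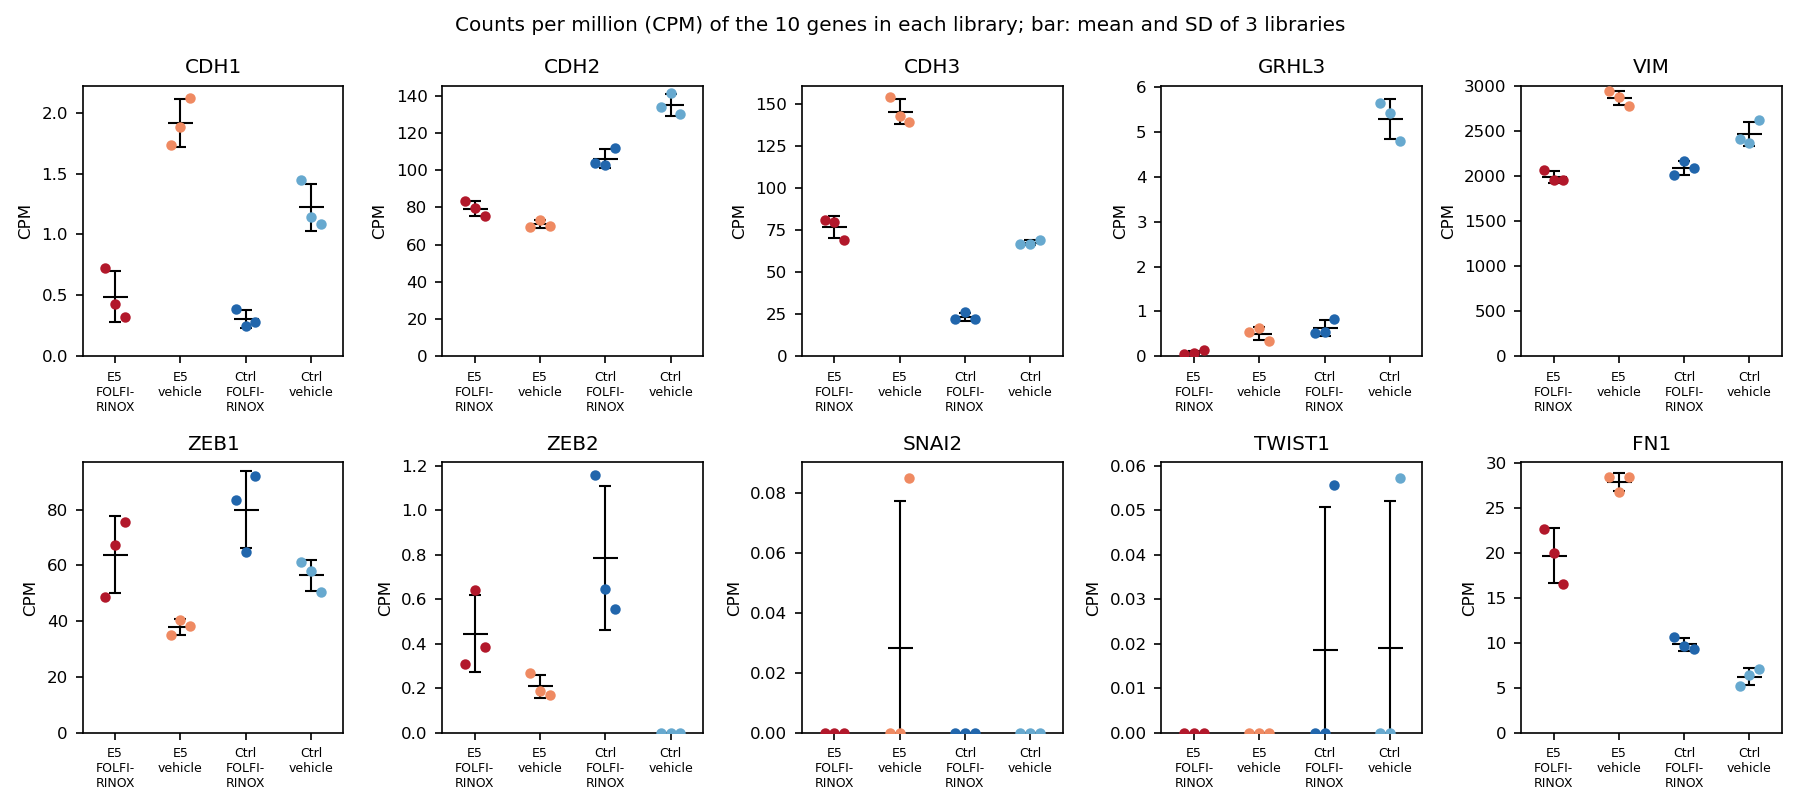
CPM of each of the 10 genes (1 panel each, linear axis from 0) in the 3 libraries of E5 FOLFIRINOX, E5 vehicle, Ctrl FOLFIRINOX and Ctrl vehicle cells; points are libraries and bars the mean and SD. CDH1 and CDH3 were lower with FOLFIRINOX in both lines, CDH2 was lower in E5 than in Ctrl cells, GRHL3 was high in Ctrl vehicle libraries alone, and SNAI2 and TWIST1 had at most 1 read in a library.

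Counts of members past the test (edgeR quasi-likelihood test, Benjamini-Hochberg adjusted p under 0.05 over all genes) were read against the share of all tested genes that passed. FOLFIRINOX against vehicle called 8 of the 8 tested members in Ctrl cells, 3 higher and 5 lower, where 65.3% of all genes were called, 32.6% higher and 32.7% lower. In E5 cells it called 7, 2 higher and 5 lower, where 52.3% of all genes were called, 25% higher and 27.3% lower. E5 against Ctrl cells called 8 under vehicle, 5 higher and 3 lower, beside 44.4% of all genes, 22.1% higher and 22.2% lower. Under FOLFIRINOX it called 4, 2 higher and 2 lower, beside 54.3% of all genes, 26.7% higher and 27.6% lower. The drug effect differed between the lines for 5 members, 2 with a higher and 3 with a lower value in E5 cells, beside 25.7% of all genes, 13.3% higher and 12.4% lower. These comparisons share groups with one another, so their results are not independent. The counts of called list genes given below are to be read against the same shares of all genes.

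**Figure D2:**
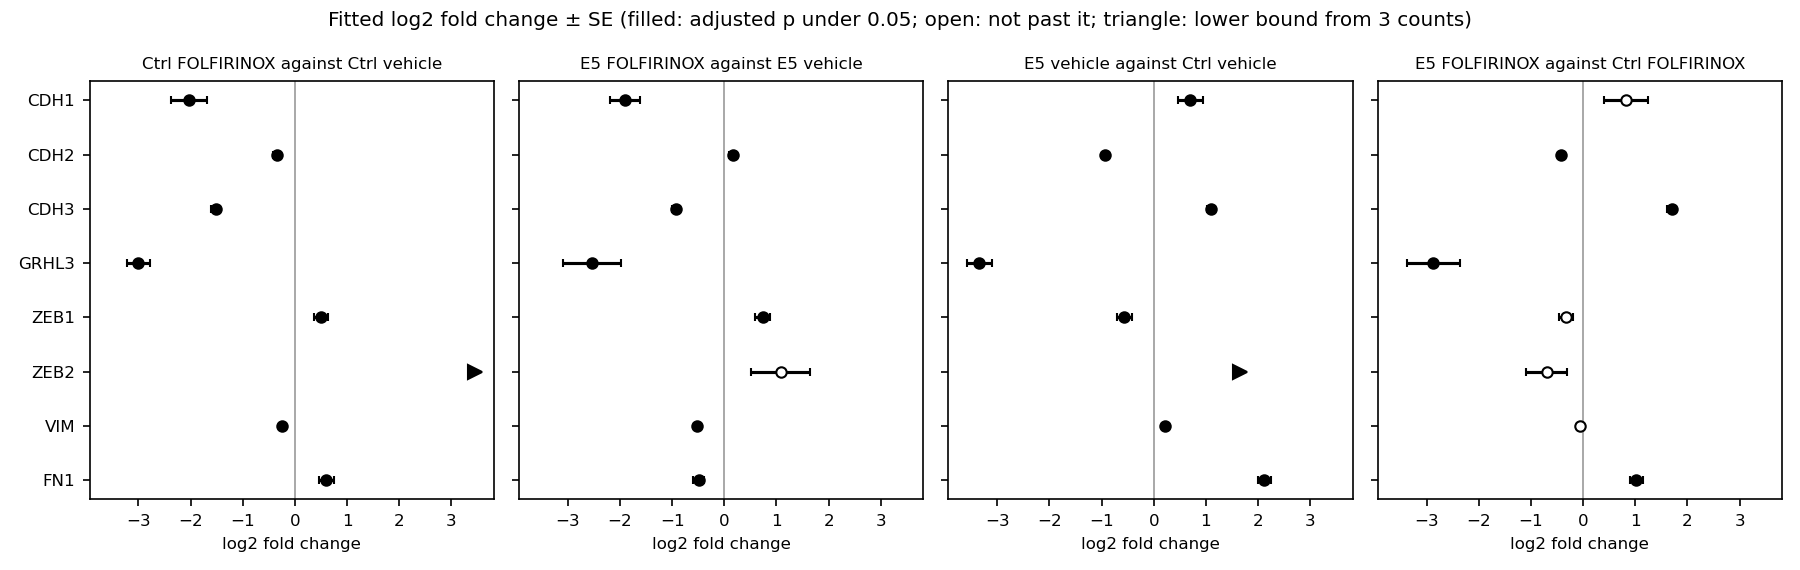
Fitted log2 fold change ± SE of the 8 tested genes in the 4 comparisons (x axis, log2 scale; positive values are higher in the first-named group). Filled points have an adjusted p under 0.05, and open points do not. Triangles, labelled as a lower bound, set ZEB2 against a limit of 3 counts, since it had 0 counts in Ctrl vehicle cells. They leave out counting error in the group compared with it, so they are not strict lower bounds. CDH1, CDH3 and GRHL3 lie left of 0 in both drug comparisons, and CDH3 and FN1 lie right of 0 in both line comparisons.

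CDH1 was present at trace level and fell with FOLFIRINOX in both lines. The gene (ENSG00000039068.20, chr16:68737292-68835537, GRCh38) had 14, 6 and 5 reads in E5 FOLFIRINOX libraries, against 13, 30 and 25 in E5 vehicle libraries. Ctrl FOLFIRINOX libraries had 3, 5 and 5 reads, against 13, 24 and 19 in Ctrl vehicle libraries. On the CPM scale, the drug-treated libraries of each line lay below all vehicle libraries of that line. The log2 fold change was -1.91 ± 0.29 in E5 cells (adjusted p = 3.37e-05) and -2.03 ± 0.35 in Ctrl cells (adjusted p = 7.8e-05). On log2(FPKM + 0.1) the Ctrl response was -1.08 and did not pass (adjusted p = 0.0569), and the Ctrl libraries overlapped in FPKM, at 0.27, 0.05 and 0.26 with FOLFIRINOX, against 0.66, 0.63 and 0.24 with vehicle. The difference between these responses was 0.12 ± 0.45 (adjusted p = 0.884), with a 95% interval of -0.75 to 0.99. Under vehicle, CDH1 averaged 1.92 ± 0.195 CPM in E5 and 1.22 ± 0.192 CPM in Ctrl cells (SD, n = 3 each), log2 0.70 ± 0.24, adjusted p = 0.0276. That call was lost with DESeq2 (adjusted p = 0.233) and without Ctrl vehicle library 2 (0.0932) or 3 (0.09) or E5 vehicle library 2 (0.0695) or 3 (0.102). It was also lost without the filter (adjusted p = 0.0702), on log2(FPKM + 1) (0.427) and on log2(FPKM + 0.1) (0.544). Under FOLFIRINOX the lines overlapped, at 0.49 ± 0.208 CPM in E5 and 0.304 ± 0.0722 CPM in Ctrl cells, adjusted p = 0.124.

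CDH3 fell with FOLFIRINOX in both lines and was higher in E5 than in Ctrl cells. This gene (ENSG00000062038.15, chr16:68636189-68727468) lies beside CDH1 and had 81.2, 80.2 and 69.5 CPM in E5 FOLFIRINOX libraries, against 154, 143 and 140 CPM in E5 vehicle libraries. In Ctrl cells it had 22.0, 26.2 and 22.2 CPM with FOLFIRINOX, against 66.97, 66.6 and 69.3 CPM with vehicle. No drug-treated library reached a vehicle library of its own line, and E5 FOLFIRINOX libraries lay just above Ctrl vehicle libraries. FOLFIRINOX lowered CDH3, with a log2 fold change of -0.92 ± 0.077 in E5 cells (adjusted p = 5.75e-08) and -1.52 ± 0.085 in Ctrl cells (adjusted p = 1.74e-10). The fall was smaller in E5 cells, a difference of 0.60 ± 0.11 (adjusted p = 0.00117). On the authors' FPKM that difference was 0.31 on the log2(FPKM + 1) scale and did not pass (adjusted p = 0.194). E5 cells had more CDH3 than Ctrl cells under vehicle, log2 1.10 ± 0.078 (adjusted p = 3.3e-09), and under FOLFIRINOX, log2 1.70 ± 0.084 (adjusted p = 3.08e-11).

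CDH2 ran the other way between the lines. It (ENSG00000170558.10, chr18:27932879-28177946) had 83.2, 79.4 and 75.5 CPM in E5 FOLFIRINOX libraries, against 69.3, 73.3 and 70.2 CPM in E5 vehicle libraries. In Ctrl cells the values were 104, 103 and 112 CPM with FOLFIRINOX, against 134, 142 and 130 CPM with vehicle. Every E5 library was below every Ctrl library. E5 cells had less CDH2 than Ctrl cells under vehicle, log2 -0.93 ± 0.065 (adjusted p = 2.66e-09), and under FOLFIRINOX, log2 -0.42 ± 0.063 (adjusted p = 2.92e-05). With FOLFIRINOX, CDH2 fell in Ctrl cells, log2 -0.35 ± 0.063 (adjusted p = 0.000119). In E5 cells the value was 0.16 ± 0.065 (adjusted p = 0.0464). The E5 call was lost with DESeq2 (adjusted p = 0.0547) and on leaving out any of 8 libraries in turn, with adjusted p = 0.0502 to 0.171: Ctrl vehicle libraries 1, 2 or 3, E5 vehicle libraries 1, 2 or 3, and E5 FOLFIRINOX libraries 1 or 2. The responses of the lines differed by 0.51 ± 0.09 (adjusted p = 0.000654).

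Set against each other per length, CDH3 exceeded CDH2 in every E5 library and was below it in every Ctrl library. The ratio of CDH3 to CDH2 FPKM was 1.68, 1.49 and 1.52 in E5 FOLFIRINOX libraries, against 3.55, 3.06 and 3.18 in E5 vehicle libraries. It was 0.472, 0.51 and 0.337 in Ctrl FOLFIRINOX libraries, against 0.892, 0.793 and 0.88 in Ctrl vehicle libraries. The 4 groups did not overlap, and within each line the ratio was lower with FOLFIRINOX. CDH3 made up 60.7 ± 1.51% of the summed FPKM of CDH1, CDH2 and CDH3 in E5 FOLFIRINOX, 75.7 ± 1.48% in E5 vehicle, 30.2 ± 4.57% in Ctrl FOLFIRINOX and 45.6 ± 1.67% in Ctrl vehicle cells. CDH1 made up at most 1.4% in any library. The sum itself was 45.2 ± 4.25 FPKM in E5 FOLFIRINOX, 65.5 ± 1.77 in E5 vehicle, 36.1 ± 1.21 in Ctrl FOLFIRINOX and 55.2 ± 1.16 in Ctrl vehicle cells. These 3 genes carried 85.5 to 95.6% of the FPKM of all the cadherins listed. The ratio was chosen after the values were seen and is given without a test.

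**Figure D3:**
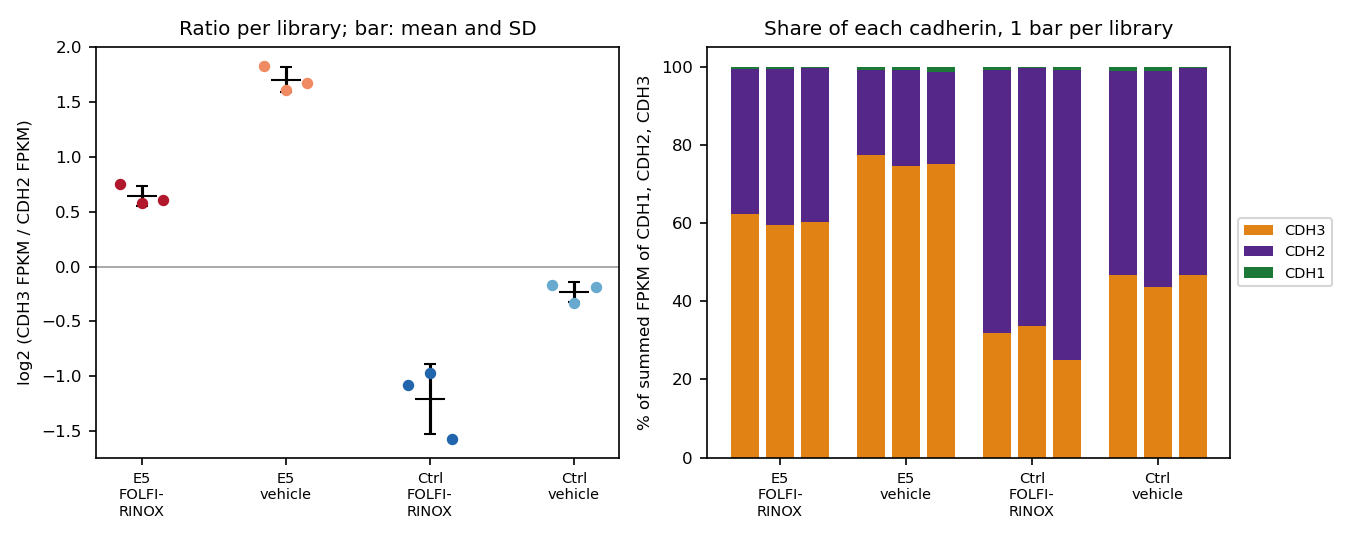
Left, log2 ratio of CDH3 to CDH2 FPKM in each library, with the mean and SD of 3 libraries per group; right, the share of CDH3, CDH2 and CDH1 in their summed FPKM, 1 bar per library. E5 libraries lie above 0 and Ctrl libraries below it, and CDH1 is a thin band of at most 1.4%.

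Of 20 other cadherins, 5 passed the filter. Under vehicle, E5 against Ctrl cells, 1 was higher and 4 were lower. VE-cadherin CDH5, known from endothelium, was higher at 5.54 ± 0.0643 CPM in E5 and 0.152 ± 0.144 CPM in Ctrl cells, log2 4.82 ± 0.35 (adjusted p = 4.15e-09). CDH18, a cadherin of the nervous system, was lower at 0.693 ± 0.113 and 8.02 ± 0.846 CPM, log2 -3.46 ± 0.2 (adjusted p = 2.4e-10). CDH10, a cadherin known from brain, had 1 read over the E5 vehicle libraries and 192 over the Ctrl vehicle libraries. With FOLFIRINOX, 0 of the 5 were higher and 4 lower in Ctrl cells (median log2 -1.42, all genes 0.0044), and 0 higher and 3 lower in E5 cells, where the median was -2.13, or -0.69 with genes of 0 reads set at their bound.

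The higher level of CDH3 in E5 cells was not shared by most genes around it. The 11 tested genes nearest to the CDH3 and CDH1 pair, 5 on each side and AC126773.4 inside the CDH3 span, included 1 higher and 8 lower in E5 than in Ctrl cells under vehicle, with a median log2 of -0.32. Under FOLFIRINOX 1 was higher and 6 were lower, with a median of -0.47. SMPD3, a sphingomyelinase gene, had -3.44 ± 0.54 (adjusted p = 6.05e-05) under vehicle and -2.71 ± 0.47 (adjusted p = 0.000125) under FOLFIRINOX. AC126773.4 was the 1 higher under vehicle, at 1.02 ± 0.35 (adjusted p = 0.0235). Under FOLFIRINOX the 1 higher was HAS3, a hyaluronan synthase gene, at 1.15 ± 0.062 (adjusted p = 9.79e-11). HAS3 also differed in its drug response, which was -0.22 ± 0.06 in E5 and -1.70 ± 0.062 in Ctrl cells, a difference of 1.47 ± 0.086 (adjusted p = 1.04e-08).

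**Figure D4:**
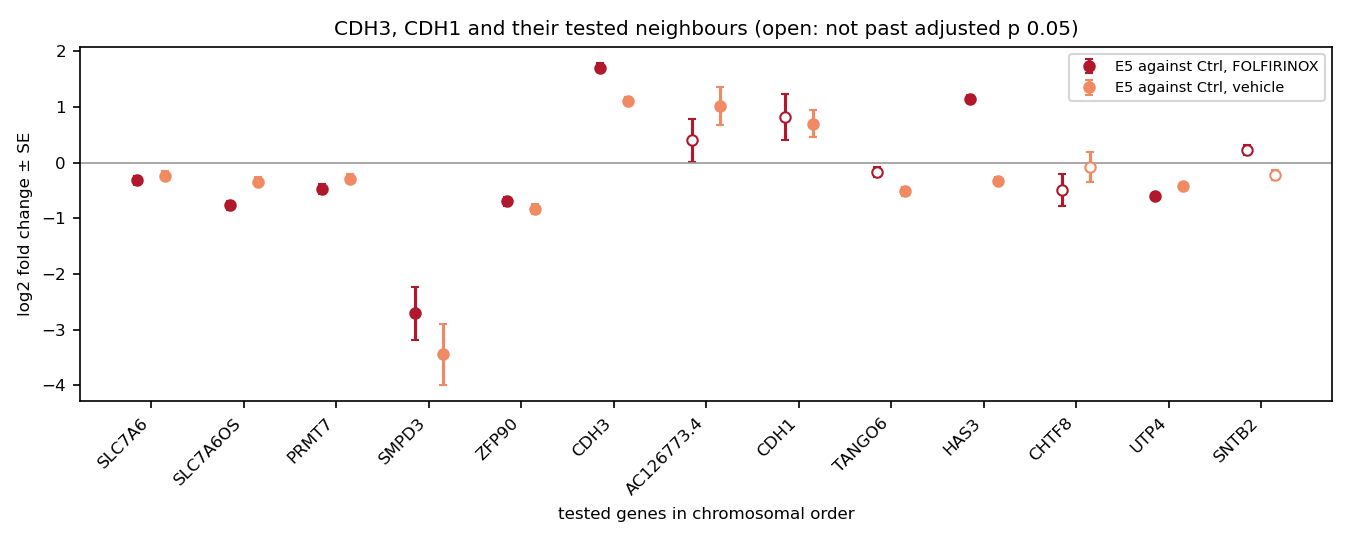
Log2 fold change ± SE of E5 against Ctrl cells under FOLFIRINOX (dark) and vehicle (light) for CDH3, CDH1 and 11 tested neighbours in chromosomal order; open points did not pass an adjusted p of 0.05. CDH3 stands at 1.70 and 1.10, while most flanking genes lie below 0.

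ZEB1, a zinc finger E-box-binding repressor, was the most abundant of the 5 transcription factors per length in every group, and it rose with FOLFIRINOX in both lines. It (ENSG00000148516.22, chr10:31318495-31529814) had 48.8, 67.2 and 75.6 CPM in E5 FOLFIRINOX libraries, against 35.0, 40.5 and 38.3 CPM in E5 vehicle libraries. Ctrl cells had 83.5, 64.7 and 92.0 CPM with FOLFIRINOX, against 61.2, 58.1 and 50.3 CPM with vehicle. The drug-treated libraries lay above the vehicle libraries in each line, although they were spread more widely. Log2 fold changes were 0.74 ± 0.15 in E5 cells (adjusted p = 0.000466) and 0.50 ± 0.14 in Ctrl cells (adjusted p = 0.00486), which differed by 0.24 ± 0.2 (adjusted p = 0.428, 95% interval -0.16 to 0.63). E5 cells had less ZEB1 than Ctrl cells under vehicle, log2 -0.56 ± 0.15 (adjusted p = 0.00512). Under FOLFIRINOX the lines overlapped, log2 -0.33 ± 0.14 (adjusted p = 0.0576). That comparison passed without Ctrl FOLFIRINOX library 2 (log2 -0.46, adjusted p = 0.00579) or E5 FOLFIRINOX library 3 (log2 -0.45, adjusted p = 0.0142). It also passed without scaling factors (adjusted p = 0.0173), without the filter (0.00773), on log2(FPKM + 1) (0.0206), on log2(FPKM + 0.1) (0.0217) and on rlog values (0.0496).

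ZEB1-AS1, an antisense transcript that overlaps the 5′ part of ZEB1, rose with the drug too. It had 8.05, 8.68 and 9.06 CPM in E5 FOLFIRINOX libraries, against 2.41, 3.83 and 2.04 CPM in E5 vehicle libraries. In Ctrl cells it had 17.1, 16.4 and 15.03 CPM with FOLFIRINOX, against 4.78, 4.62 and 4.69 CPM with vehicle. Groups did not overlap, and the log2 fold change was 1.56 ± 0.17 in E5 cells (adjusted p = 9.15e-07) and 1.78 ± 0.14 in Ctrl cells (adjusted p = 7.56e-09). The table of counts is named as stranded, and the sources used here do not say how overlapping reads were handled, so reads shared by the pair remain uncertain. Of the other antisense transcripts listed, ZEB2-AS1 had no read. The drug response of VIM-AS1 was 0.38 ± 0.15 in Ctrl cells (adjusted p = 0.0336) and -0.29 ± 0.15 in E5 cells (adjusted p = 0.123). The difference, E5 minus Ctrl, was -0.674 ± 0.215 (adjusted p = 0.0294).

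ZEB2, the paralogue of ZEB1, was close to the limit of detection. It (ENSG00000169554.22, chr2:144364364-144521057) had 6, 9 and 6 reads in E5 FOLFIRINOX, 2, 3 and 2 in E5 vehicle, 9, 13 and 10 in Ctrl FOLFIRINOX, and 0, 0 and 0 in Ctrl vehicle libraries. Every library but the 3 of Ctrl vehicle cells held at least 2 reads. With 0 reads in the Ctrl vehicle group, up to 3 counts remain possible, or 0.0632 CPM. Set against that limit, the 32 reads of Ctrl FOLFIRINOX cells gave an 11-fold higher level of ZEB2 (edgeR adjusted p = 1.97e-05). The 7 reads of E5 vehicle cells gave a level 3.15-fold above the same limit (edgeR adjusted p = 0.00783). Counting error in the 32 and 7 reads is not included, so neither ratio is a strict lower bound. In E5 cells the drug gave a ratio of 2.15, with a 95% interval of 0.881 to 5.99 for counting error only, and the test did not pass (adjusted p = 0.121). The test of the difference between lines passed (adjusted p = 0.00871), and it rests on the group with 0 counts; it did not pass on log2(FPKM + 1) (adjusted p = 0.348). The E5 vehicle call was lost on log2(FPKM + 1), with adjusted p = 0.48, and on the authors' rlog values, with adjusted p = 0.0765.

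SNAI2 and TWIST1 were essentially without reads. SNAI2 (ENSG00000019549.13, chr8:48917598-48921740) had 1 read in 1 E5 vehicle library, and TWIST1 (ENSG00000122691.13, chr7:19020991-19117636) had 1 read in 1 Ctrl FOLFIRINOX and 1 Ctrl vehicle library. Where a group had 0 reads, the upper limit was 0.0612 CPM in E5 FOLFIRINOX, 0.0853 in E5 vehicle, 0.0653 in Ctrl FOLFIRINOX and 0.0632 in Ctrl vehicle cells, from counting error only. No difference between groups was detectable at this depth for either gene.

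GRHL3 was read mainly in Ctrl vehicle cells. It (ENSG00000158055.16, chr1:24319357-24364482) had 1, 1 and 2 reads in E5 FOLFIRINOX, 4, 10 and 4 in E5 vehicle, 4, 11 and 15 in Ctrl FOLFIRINOX, and 51, 114 and 84 in Ctrl vehicle libraries. On the CPM scale the means were 0.0838 ± 0.04 in E5 FOLFIRINOX, 0.501 ± 0.147 in E5 vehicle, 0.631 ± 0.177 in Ctrl FOLFIRINOX and 5.3 ± 0.448 in Ctrl vehicle cells. Drug-treated libraries were below vehicle libraries in both lines, and E5 libraries were below Ctrl libraries under both treatments. FOLFIRINOX lowered it, with a log2 fold change of -2.53 ± 0.56 in E5 cells (adjusted p = 0.00115) and -3.00 ± 0.21 in Ctrl cells (adjusted p = 3.22e-09). E5 against Ctrl cells gave -3.34 ± 0.24 under vehicle (adjusted p = 4.76e-09) and -2.87 ± 0.5 under FOLFIRINOX (adjusted p = 0.000123). The difference of the drug responses was 0.47 ± 0.94 (adjusted p = 0.796), with a 95% interval from -1.38 to 2.31, too wide at these counts to place the E5 response. On log2(FPKM + 1) the E5 drug response was -0.27 and did not pass (adjusted p = 0.0544). The difference of responses passed on that scale, at 0.77, and on rlog values, at 1.13.

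Promoters are shown for the members that changed by at least 2-fold and have an entry in the RefSeq table for build GRCh38.p14, as the 250 bases before the annotated start, since these are the windows where E-box repressors such as ZEB1 would be sought. Of the 10 members, 6 matched that table. CDH1 and CDH3 also changed by at least 2-fold but had no entry in it, so their promoters were not searched. The motifs searched on both strands were the E-box CACCTG or its reverse complement CAGGTG, shown in capitals, and the grainyhead-like site AACCGGTT, which is its own reverse complement. GRHL3 is at chr1:24319107-24319356 on the plus strand, ZEB2 at chr2:144520120-144520369 on the minus strand and FN1 at chr2:215436069-215436318 on the minus strand.
GRHL3: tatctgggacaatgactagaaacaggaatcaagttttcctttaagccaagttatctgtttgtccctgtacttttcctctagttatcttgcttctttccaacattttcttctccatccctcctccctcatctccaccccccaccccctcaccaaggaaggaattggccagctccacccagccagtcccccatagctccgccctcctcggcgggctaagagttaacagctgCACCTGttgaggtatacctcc
ZEB2: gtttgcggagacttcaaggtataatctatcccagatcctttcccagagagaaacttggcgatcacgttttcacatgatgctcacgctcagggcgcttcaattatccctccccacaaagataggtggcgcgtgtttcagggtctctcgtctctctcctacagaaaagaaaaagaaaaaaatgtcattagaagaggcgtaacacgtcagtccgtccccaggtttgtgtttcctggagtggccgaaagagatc
FN1: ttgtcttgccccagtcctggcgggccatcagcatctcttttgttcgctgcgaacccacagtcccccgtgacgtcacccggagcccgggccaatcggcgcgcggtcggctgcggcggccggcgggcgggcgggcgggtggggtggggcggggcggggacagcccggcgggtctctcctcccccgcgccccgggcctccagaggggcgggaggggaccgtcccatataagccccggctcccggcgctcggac
GRHL3 holds 1 E-box, beginning 21 bases before the start used (-21), and ZEB2 and FN1 hold none. For GRHL3, 2 starts were annotated, and the window shown belongs to the start nearest the gene's 5′ end. The annotated ZEB2 start lies 938 bases inside the gene's 5′ end as the count table gives it. Over 35116 promoters of this length, 17.5% held the E-box and 0.117% held the grainyhead-like site, which none of these windows held. A match describes letters only, and no match says only that these letters are not in this window.

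Among 13 other transcription factors of the same programme, 9 passed the filter. FOLFIRINOX gave 4 higher, 0 lower and 5 not passed in E5 cells, and the same counts in Ctrl cells, with medians of 0.26 and 0.62 against 0.0034 and 0.0044 over all genes. ETS1, an ETS family factor, had 279, 297 and 291 CPM in E5 FOLFIRINOX and 150, 142 and 147 CPM in E5 vehicle libraries, log2 0.98 ± 0.052 (adjusted p = 3.68e-10). In Ctrl cells it had 635, 623 and 652 CPM with FOLFIRINOX and 255, 259 and 248 CPM with vehicle, log2 1.33 ± 0.052 (adjusted p = 2.69e-12), so that treated E5 libraries lay only slightly above untreated Ctrl libraries. SNAI1, the Snail factor related to SNAI2, was readily counted at 17.1 ± 1.08 CPM in E5 FOLFIRINOX, 12.9 ± 0.571 in E5 vehicle, 14.9 ± 1.02 in Ctrl FOLFIRINOX and 10.0 ± 2.29 in Ctrl vehicle cells. It rose with the drug by log2 0.41 ± 0.12 in E5 cells (adjusted p = 0.00962) and 0.62 ± 0.13 in Ctrl cells (adjusted p = 0.000369). E5 against Ctrl cells under vehicle gave 3 higher, 3 lower and 3 not passed, with ETS1 lower at -0.80 ± 0.052 (adjusted p = 1.22e-09).

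**Figure D5:**
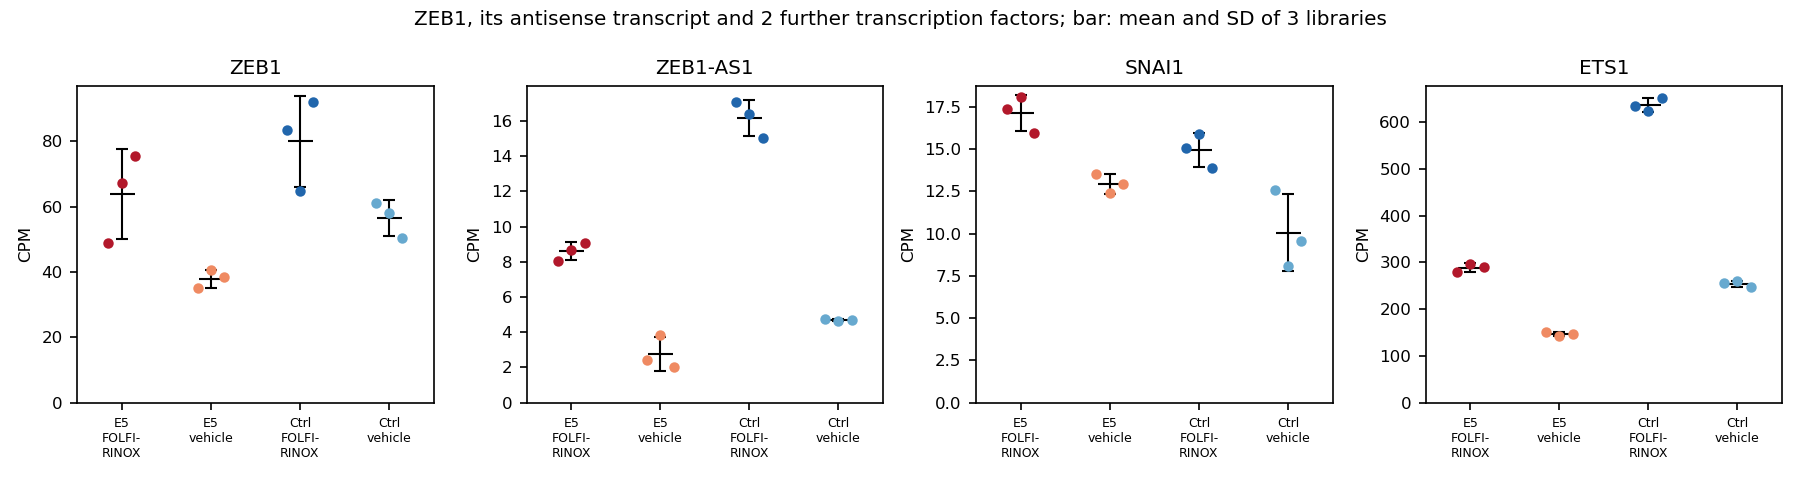
CPM of ZEB1, its antisense transcript ZEB1-AS1, SNAI1 and ETS1 in each library (linear axes from 0), with the mean and SD of 3 libraries per group. All 4 are higher with FOLFIRINOX within each line, and ETS1 is lower in E5 than in Ctrl cells under the same treatment.

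Of 16 epithelial transcription and splicing factors, 6 passed the filter. GRHL2, OVOL1, OVOL2, ESRP2 and MIR200CHG, the host gene of miR-200 family members that repress ZEB1, had 8, 7, 2, 9 and 1 reads over all 12 libraries. KLF4, a Krüppel-like factor of epithelia, was higher with FOLFIRINOX at 24.7 ± 0.663 against 10.6 ± 0.405 CPM in E5 cells and 18.3 ± 1.76 against 7.05 ± 0.521 CPM in Ctrl cells, log2 1.23 ± 0.094 (adjusted p = 2.25e-08) and 1.40 ± 0.099 (adjusted p = 2.82e-09). KLF5 fell in E5 cells, log2 -0.34 ± 0.13 (adjusted p = 0.0401) and rose in Ctrl cells by 0.79 ± 0.098 (adjusted p = 2.14e-06), a difference of -1.13 ± 0.16 (adjusted p = 0.000111). The drug gave 2 higher and 1 lower in E5 cells and 3 higher and 1 lower in Ctrl cells.
Of 11 corepressors that ZEB, SNAI and TWIST factors recruit, all tested, FOLFIRINOX gave 2 higher and 7 lower in E5 cells and 1 higher and 6 lower in Ctrl cells, with medians of -0.24 and -0.23. The histone demethylase gene KDM1A fell, at log2 -0.47 ± 0.055 in E5 cells (adjusted p = 2.08e-06) and -0.58 ± 0.055 in Ctrl cells (adjusted p = 8.23e-08).

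VIM fell with FOLFIRINOX in both lines, by little in Ctrl cells. It (ENSG00000026025.16, chr10:17228241-17237593) had 2068, 1956 and 1955 CPM in E5 FOLFIRINOX libraries, against 2943, 2880 and 2783 CPM in E5 vehicle libraries. In Ctrl cells it had 2011, 2168 and 2095 CPM with FOLFIRINOX, against 2417, 2373 and 2618 CPM with vehicle. The groups did not overlap within either line. The fall was -0.53 ± 0.051 in E5 cells (adjusted p = 2.76e-07) and -0.24 ± 0.051 in Ctrl cells (adjusted p = 0.000528), a difference of -0.29 ± 0.071 (adjusted p = 0.00776). The Ctrl value was -0.10 without scaling factors (adjusted p = 0.0941) and -0.08 on log2(FPKM + 1) (adjusted p = 0.206). Under vehicle E5 cells had 0.22 ± 0.051 more than Ctrl cells on the log2 scale (adjusted p = 0.00214). Under FOLFIRINOX the lines overlapped, at -0.07 ± 0.051 (adjusted p = 0.262), and the comparison passed without scaling factors (-0.15, adjusted p = 0.0268). Without the filter the difference of responses did not pass (adjusted p = 0.053).
Of 6 other intermediate filament and linker genes, NES (nestin), SYNM (synemin) and PLEC (plectin) passed the filter, and all 3 fell with the drug in both lines. NES had -1.33 ± 0.21 in E5 cells (adjusted p = 4.92e-05) and -0.94 ± 0.17 in Ctrl cells (adjusted p = 8.77e-05).

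FN1 fell with FOLFIRINOX in E5 cells and rose in Ctrl cells. It (ENSG00000115414.21, chr2:215360440-215436073) had 22.7, 19.99 and 16.5 CPM in E5 FOLFIRINOX libraries, against 28.5, 26.8 and 28.5 CPM in E5 vehicle libraries. In Ctrl cells it had 10.7, 9.61 and 9.30 CPM with FOLFIRINOX, against 5.22, 6.44 and 7.09 CPM with vehicle. All 4 groups stood apart, and the lowest E5 library was above the highest Ctrl library. The drug response was -0.49 ± 0.11 in E5 cells (adjusted p = 0.00111) and 0.61 ± 0.14 in Ctrl cells (adjusted p = 0.000951), a difference of -1.10 ± 0.17 (adjusted p = 0.000261). On log2(FPKM + 1) the Ctrl response was 0.32 and did not pass (adjusted p = 0.137). On log2(FPKM + 0.1) the E5 response (adjusted p = 0.104) and the difference (adjusted p = 0.0687) did not pass either. E5 cells exceeded Ctrl cells by log2 2.12 ± 0.12 under vehicle (adjusted p = 2.98e-10) and 1.02 ± 0.12 under FOLFIRINOX (adjusted p = 1.57e-06).

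Receptors and partners of fibronectin were also higher in E5 cells in part. Of 14 listed, 11 passed the filter, and E5 against Ctrl cells gave 7 higher, 3 lower and 1 not passed under vehicle (median log2 0.84, all genes -0.0089). Under FOLFIRINOX the counts were again 7, 3 and 1 (median 0.84 on the log2 scale, all genes -0.012). ITGA4, the integrin alpha 4 subunit, had 45.7, 55.9 and 56.8 CPM in E5 vehicle libraries, against 1.22, 1.81 and 1.89 CPM in Ctrl vehicle libraries, log2 4.94 ± 0.15 (adjusted p = 6.36e-14). ITGB3, the integrin beta 3 subunit, was also higher, log2 2.80 ± 0.13 (adjusted p = 1.07e-11). The classical fibronectin receptor subunit ITGA5 was higher in E5 than in Ctrl cells under both treatments. Under FOLFIRINOX it had 129 ± 13.4 CPM in E5 and 59.1 ± 2.67 CPM in Ctrl cells, log2 1.12 ± 0.078 (adjusted p = 2.51e-09). Under vehicle the value was log2 1.12 ± 0.077 (adjusted p = 2.33e-09). Its drug response was -0.29 in E5 cells (adjusted p = 0.00372) and -0.29 in Ctrl cells (adjusted p = 0.00401). TNC, which encodes the matrix protein tenascin C, was higher in E5 than in Ctrl cells under FOLFIRINOX, log2 2.19 ± 0.086 (adjusted p = 1.71e-12). The proteoglycan gene SDC1 was lower in E5 than in Ctrl cells under vehicle, log2 -1.76 ± 0.079 (adjusted p = 9.62e-12). FOLFIRINOX gave 2 higher and 3 lower in E5 cells and 2 higher and 7 lower in Ctrl cells. TGM2, a transglutaminase that crosslinks matrix, rose in both, by 1.07 ± 0.12 (adjusted p = 1.1e-06) and 2.81 ± 0.13 (adjusted p = 1.92e-11), a difference of -1.74 ± 0.18 (adjusted p = 4.29e-06).

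Other mesenchymal surface, cytoskeleton and matrix genes split. Of 20, 15 passed the filter, and FOLFIRINOX gave 5 higher and 5 lower in E5 cells and 6 higher and 7 lower in Ctrl cells. E5 against Ctrl cells gave 7 higher and 4 lower under vehicle and the same counts under FOLFIRINOX. SPARC, a matrix glycoprotein gene, was higher at 10.6 ± 0.562 CPM in E5 vehicle and 0.499 ± 0.231 CPM in Ctrl vehicle cells, log2 4.25 ± 0.24 (adjusted p = 2.07e-10). LOX, a collagen-crosslinking oxidase gene, was lower at 0.767 ± 0.187 and 5.16 ± 0.309 CPM, log2 -2.78 ± 0.23 (adjusted p = 2.94e-08). TGFBI, a matrix adhesion protein gene, rose with FOLFIRINOX by 1.34 ± 0.14 in E5 cells (adjusted p = 6.96e-07) and 1.72 ± 0.19 in Ctrl cells (adjusted p = 4.46e-07).

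Junction genes that work with cadherins mostly fell with the drug. Of 14 catenins and junction partners, 10 passed the filter, with 2 higher and 6 lower in E5 cells and 3 higher and 7 lower in Ctrl cells (medians -0.34 and -0.72). JUP, which encodes plakoglobin, had 22.2, 21.5 and 21.7 CPM in E5 FOLFIRINOX and 82.8, 68.3 and 64.1 CPM in E5 vehicle libraries. In Ctrl cells it had 27.9, 30.6 and 23.2 CPM with FOLFIRINOX and 145, 141 and 166 CPM with vehicle. Its libraries fell into separate ranges by treatment in both lines, with log2 fold changes of -1.71 ± 0.11 (adjusted p = 3.11e-09) in E5 and -2.47 ± 0.11 (adjusted p = 1e-11) in Ctrl cells. CTNNB1, which encodes beta-catenin, fell, at log2 -0.27 ± 0.05 in E5 cells (adjusted p = 0.000258) and -0.69 ± 0.05 in Ctrl cells (adjusted p = 4.12e-09), and was higher in E5 than in Ctrl cells under FOLFIRINOX, log2 0.52 ± 0.05 (adjusted p = 1.76e-07). Under vehicle, E5 against Ctrl cells gave 1 higher, 2 lower and 7 not passed.

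Of 24 epithelial junction and polarity genes, 17 passed the filter, with FOLFIRINOX giving 1 higher and 8 lower in E5 cells and 4 higher and 7 lower in Ctrl cells (medians -0.037 and -0.13). Of all tested genes, FOLFIRINOX called 52.3% in E5 cells (25% higher, 27.3% lower) and 65.3% in Ctrl cells (32.6% higher, 32.7% lower). E5 against Ctrl cells gave 5 higher and 8 lower under vehicle and 2 higher and 8 lower under FOLFIRINOX. LLGL2, a polarity gene, fell, at log2 -1.48 ± 0.14 in E5 cells (adjusted p = 3.25e-07) and -1.69 ± 0.16 in Ctrl cells (adjusted p = 1.06e-07). CLDN1, a claudin of tight junctions, had a difference of drug responses of -1.12 ± 0.085 (adjusted p = 1.87e-07), from -0.03 ± 0.06 in E5 and 1.09 ± 0.061 in Ctrl cells. Of 10 desmosome genes, 8 passed the filter, with 4 higher and 2 lower in E5 cells and 2 higher and 2 lower in Ctrl cells. Desmoplakin (DSP) rose by 0.90 ± 0.093 (adjusted p = 5.76e-07) and 1.35 ± 0.093 (adjusted p = 2.02e-09), whereas periplakin (PPL) fell, at log2 -1.47 ± 0.075 (adjusted p = 2.33e-10) and -1.77 ± 0.073 (adjusted p = 5.46e-12). Envoplakin (EVPL) was lower in E5 than in Ctrl cells under vehicle, log2 -4.15 ± 0.45 (adjusted p = 8.63e-07). Of 6 proteases that cleave cadherins, FOLFIRINOX gave 1 higher and 1 lower in E5 cells and 1 higher and 3 lower in Ctrl cells, and NCSTN, the nicastrin subunit of gamma-secretase, fell, at log2 -0.98 ± 0.072 (adjusted p = 1.47e-08) and -0.99 ± 0.074 (adjusted p = 5.34e-09).

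Epithelial keratins differed between the lines beside these genes. All 6 ductal markers were higher in E5 than in Ctrl cells under each treatment. KRT8 had 258, 241 and 221 CPM in E5 vehicle libraries, against 30.2, 29.9 and 35.0 CPM in Ctrl vehicle libraries, log2 2.91 ± 0.095 (adjusted p = 1.32e-13). PTPRC, the leukocyte surface gene CD45, averaged 0.0655 ± 0.0669 CPM in E5 vehicle and 51.8 ± 3.1 CPM in Ctrl vehicle cells (adjusted p = 3.91e-14), with CD3E at 0. It made up most of the leukocyte sum. The fibroblast markers did not move together under vehicle. COL1A1, a fibroblast collagen, was higher in E5 cells at 15.5 ± 0.767 against 3.84 ± 0.291 CPM, log2 2.0 ± 0.12 (adjusted p = 2.07e-10). PDGFRB was lower in E5 cells, log2 -1.74 ± 0.59 (adjusted p = 0.0253), and COL3A1 did not pass, log2 -0.65 ± 0.29 (adjusted p = 0.0807). The part of these marker differences in the member results was not tested.

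Patterns across the 12 libraries were compared by Pearson's r of log2 CPM with 5767 tested genes whose group means spanned at least 1 log2 unit. The 12 libraries differ in depth and fall into 4 groups, so they are not independent points, and r is given as a description. The closest genes were GTF2I (0.977) for CDH1, DOCK4 (0.987) for CDH2, AGPAT3 (0.997) and GALNT2 (0.995) for CDH3, and RAB11FIP2 (0.981) for ZEB1. They were IGFBP3 (0.968) and ATF3 (0.966) for ZEB2, ARSD (0.977) for VIM, SERPINA1 (0.99) for FN1 and GSTO2 (0.984) for GRHL3.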

How the data were processed

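RNA of KP4 cells was sequenced after a KAPA mRNA library kit, per the labels. The tools were Trimmomatic and STAR 2.5.1b and the build was GRCh38, per the submitters' processing notes; no annotation is named in the sources used here. The authors deposited stranded read counts per gene without scaling, FPKM values, and rlog values on a log2 scale, with no program named for either. Reads outside genes (unmapped, 1.47 to 1.70%; multimapping, 10.8 to 12.8%; without feature, 6.63 to 8.52%; ambiguous, 2.86 to 3.20%) stayed out of library sizes.

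Counts were tested with edgeR 4.0.16 (quasi-likelihood F test, group means, TMM, filterByExpr; limma 3.58.1, R 4.3.3) on 15636 genes, with Benjamini-Hochberg adjustment over all of them; every adjusted p in the text comes from it unless DESeq2 1.42.0 or limma is named, and the FPKM and rlog alternatives used limma. CPM are TMM-scaled except in the filter, log2 fold changes are given ± SE and levels ± SD. The biological coefficient of variation was 7.37%. The spread between library pairs of a group was 1.42 to 13 times the counting variance. The script was tested on simulated data. Floors are 3 counts over a group; floors and 95% ratio intervals cover only counting error.

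The members and lists were chosen with earlier results of these data known. All 10 members are described. The rule for list genes took the 3 largest absolute changes in each comparison among called genes with a mean of at least 1 CPM; the text prints part of these, chosen after their values were seen, and counts cover each list whole. The drug responses of CTNNB1, the neighbours SMPD3 and HAS3 and the genes given by total reads were singled out after their values were seen. For likeness, the 2 closest genes per member were ranked, and for most members the closest is given. Some marker genes are not reported here.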

Additional observations from a re-analysis of the deposited data

Results flagged for a closer look

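The drug response differed between E5 and Ctrl cells, by the test of the difference in the edgeR quasi-likelihood fit, for 5 of the 8 tested members. The E5 response minus the Ctrl response, on the log2 scale, was 0.51 for CDH2 (adjusted p = 0.000654), 0.60 for CDH3 (adjusted p = 0.00117), -0.29 for VIM (adjusted p = 0.00776) and -1.10 for FN1 (adjusted p = 0.000261). For ZEB2 the fitted difference was -5.32 (adjusted p = 0.00871); it rests on the 0 reads of the Ctrl vehicle libraries, so its size is set by the prior count and is no bound.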

How the results depend on the processing

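Of 825 member values recomputed under 21 alternatives, 777 kept their side of the threshold, 36 lost the call, 12 gained it and 0 reversed. A reversal was counted only where the main fit or the alternative called the gene, so values uncalled in both may have changed sign. Members called numbered 5 in place of 8 for Ctrl FOLFIRINOX against vehicle, and 2 in place of 5 for the difference of drug responses, on log2(FPKM + 0.1) with limma; the cause was not tested. Leaving out 1 library each gave 8 to 8, 6 to 7, 7 to 8, 4 to 5 and 5 to 5 members called for the Ctrl drug, E5 drug, vehicle line, FOLFIRINOX line and difference comparisons. The replicate block (column numbers 1 to 3) ended 1 member call, CDH2 in E5 cells (0.16, adjusted p = 0.0709); deviations of same-numbered libraries correlated at -0.188 to 0.148, so the numbers were not taken to pair libraries.

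Scaling moved the share of higher calls among all genes. For the Ctrl drug response it was 49.9% in the main fit, 60.8% without scaling factors and 66.9% on log2(FPKM + 1). For the E5 drug response it was 47.8% in the main fit and 58.4% on log2(FPKM + 0.1). For E5 against Ctrl under FOLFIRINOX it was 49.1% in the main fit and 35.4% on log2(FPKM + 1). For the difference it was 51.8% in the main fit and 39.6% without scaling factors. It was 26.5% for the difference on log2(FPKM + 1) and 63.4% without the filter. The median of all genes moved to 0.14 without scaling factors in the Ctrl drug comparison. Small changes such as that of VIM in Ctrl cells are of that size. CDH1, ZEB2 and GRHL3 rest on few reads, and SNAI2 and TWIST1 could not be compared at this depth.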
